A study of Mus musculus with 9 samples.

Results

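The interferon regulatory factors (IRFs) are DNA-binding transcription factors that share a helix-turn-helix DNA-binding domain, and 8 of the 25500 entries of the expression table were genes of this family. They were taken by symbol: *Irf1*, *Irf2*, *Irf3*, *Irf4*, *Irf5*, *Irf7*, *Irf8* and *Irf9*. The members were chosen with earlier results of these data known. All 8 passed the filter on low values that was applied before testing. IRFs bind DNA motifs built around GAAA, including the interferon-stimulated response element (ISRE). IRF3, IRF5 and IRF7 are phosphorylated downstream of pattern-recognition receptors and switch on type I interferon genes. IRF9 acts in the cellular response to type I interferon. IRF1 is induced by IFN-γ and activates many interferon-responsive genes, and IRF2 competes with it for the same sites. IRF4 and IRF8 are largely restricted to blood cells, bind poorly on their own, and work with partners such as BATF-JUN dimers or PU.1 and SPIB. In Tregs, IRF4 is induced by T cell receptor (TCR) signaling and is needed for the effector Treg program. IRF8 is best known for its part in dendritic cell, monocyte and B cell development.

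The study asked how loss of the chaperone gp96, encoded by *Hsp90b1*, altered gene expression in Tregs. gp96 resides in the endoplasmic reticulum and is required for the folding of integrins and most Toll-like receptors, among other cell surface proteins. WT Tregs came from *Foxp3*eGFP-Cre-ERT2 *Hsp90b1*WT/WT mice and KO Tregs from *Foxp3*eGFP-Cre-ERT2 *Hsp90b1*fl/fl mice, all on a C57BL/6 background and 8 to 12 weeks old. Both genotypes carried the tamoxifen-inducible Cre, active in *Foxp3*-expressing cells, and mice of both were given tamoxifen (75 mg/kg, 10 days). About 1000000 GFP+ Tregs were then sorted from the spleen, and bulk RNA was sequenced. There were 4 WT libraries and 5 KO libraries. The study's methods give 4 mice per genotype without naming the libraries. The main comparison used WT 1 to WT 4 and KO 2 to KO 5, because the study's supplementary expression values appeared to be those of KO 2 to KO 5, which is not certain. KO 1 is given beside every member, and all 9 libraries formed an alternative fit. In bulk RNA, fewer cells of a type and less RNA per cell cannot be told apart.

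Libraries held between 12059966 and 24518439 reads, as recovered from the expression values. *Hsp90b1* stood at 44.4 to 62.9 FPKM (fragments scaled by exon length and by library size) in WT libraries and at 1.77 to 3.11 FPKM in the 5 KO libraries, so every library matched its label. WT 1 and KO 1 stood apart from the rest. The nuclear RNA *Malat1* was listed at 24.9 FPKM in WT 1 and 30.6 FPKM in KO 1, against 182 to 374 FPKM in the other 7 libraries. *Foxp3*, the lineage factor of Tregs, was at 83.0 FPKM in WT 1 and 55.0 FPKM in KO 1, against 102 to 110 FPKM elsewhere. Member values are therefore also given without WT 1 or with KO 1 where these moved them. KO 5 also differed from the other KO libraries in interferon-stimulated genes: *Ifit1* was at 11.8 FPKM in KO 5 and at 5.26 to 5.82 FPKM in KO 2 to KO 4, and *Mx1* at 6.01 against 2.54 to 2.61 FPKM.

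Members' promoters were taken from RefSeq (GRCm38.p6), each covering 250 bases before to 50 bases after an annotated start. All 8 members matched, with 11 promoters. Those of the 3 members whose WT and KO libraries did not overlap (*Irf8*, *Irf4* and *Irf7*) and of the most abundant member (*Irf1*) are shown because the results below turn on them. Capitals mark matches to the γ-activated site (GAS) TTCNNNGAA, to which STAT dimers bind, and to the TATA box letters TATAAA on the gene's strand between 40 and 20 bases before the start.
Irf8, chr8:120736108-120736407, plus strand: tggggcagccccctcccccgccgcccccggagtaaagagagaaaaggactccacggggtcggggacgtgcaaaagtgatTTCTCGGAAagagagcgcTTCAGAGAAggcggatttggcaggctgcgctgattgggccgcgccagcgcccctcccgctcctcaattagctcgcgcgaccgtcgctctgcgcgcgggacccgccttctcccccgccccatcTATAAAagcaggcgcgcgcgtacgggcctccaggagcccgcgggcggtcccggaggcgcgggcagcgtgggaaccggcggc
Irf4, chr13:30748983-30749282, plus strand: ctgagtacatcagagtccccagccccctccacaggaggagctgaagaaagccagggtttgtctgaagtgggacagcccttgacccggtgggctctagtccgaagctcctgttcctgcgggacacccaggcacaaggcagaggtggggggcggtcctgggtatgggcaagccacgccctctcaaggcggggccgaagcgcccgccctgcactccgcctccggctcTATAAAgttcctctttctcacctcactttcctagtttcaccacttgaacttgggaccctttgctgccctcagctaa
Irf7, chr7:141266375-141266674, minus strand: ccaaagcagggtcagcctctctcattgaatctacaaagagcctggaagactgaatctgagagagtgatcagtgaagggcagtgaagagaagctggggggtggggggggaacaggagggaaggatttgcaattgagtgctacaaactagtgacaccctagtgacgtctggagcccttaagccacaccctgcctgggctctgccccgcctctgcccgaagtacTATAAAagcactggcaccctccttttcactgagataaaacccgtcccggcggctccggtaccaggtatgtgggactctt
Irf1, chr11:53769764-53770063, plus strand: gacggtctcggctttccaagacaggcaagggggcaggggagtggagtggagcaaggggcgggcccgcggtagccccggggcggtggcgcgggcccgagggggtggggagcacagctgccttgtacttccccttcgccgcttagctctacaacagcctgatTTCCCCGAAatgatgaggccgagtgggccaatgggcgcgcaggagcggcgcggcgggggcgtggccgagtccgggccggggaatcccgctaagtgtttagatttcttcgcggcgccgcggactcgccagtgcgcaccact
In *Irf8* the pair of GAS matches began 171 and 153 bases before the start, and in *Irf1* the GAS match began 90 bases before it.

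Both strands were searched for 4 motifs. GAS matches stood in 8.3% of all 32851 RefSeq mouse promoters of this length, the ISRE core AAANNGAAA in 10.6%, the ETS-IRF composite core GGAANNGAA in 8.24%, and the kappa B core GGGANNTTC in 3.94%. Besides *Irf1* and *Irf8*, the *Irf2* promoter held matches: a composite core, an ISRE core that overlapped it, and a GAS, beginning 247, 240 and 224 bases before the start. None of the 4 motifs matched in the windows of *Irf3*, *Irf4*, *Irf5*, *Irf7* or *Irf9*. The search for TATAAA was added after the promoters had been read. The *Irf8*, *Irf4* and *Irf7* promoters shown held it 31, 26 and 29 bases before the start, whereas the other 8 member promoters lacked it. Across all promoters, 1.99% had these letters in that place and 13.6% had them anywhere on either strand. A match is a run of letters, not a measured binding site.

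FPKM was scaled here by the merged length of all annotated exons of a gene, which can exceed that of its transcript. For *Irf7* this was 1 merged exon of 3776 bases, the whole span of the gene. Levels set beside each other across genes are therefore approximate. *Irf1* was the most abundant member in WT Tregs (61.9 ± 4.19 FPKM, mean ± SD, n = 4). *Irf3* (31.4 ± 6.11 FPKM) and *Irf9* (30.2 ± 1.19 FPKM) followed, and their libraries overlapped. *Irf7* (15.6 ± 1.69 FPKM), *Irf4* (15.4 ± 0.947 FPKM) and *Irf2* (14.9 ± 4.78 FPKM) came next and also overlapped. *Irf5* (9.03 ± 0.901 FPKM) and *Irf8* (7.23 ± 0.475 FPKM) were lowest, separated only narrowly, with the lowest *Irf5* library at 7.86 and the highest *Irf8* library at 7.80 FPKM. In KO Tregs *Irf4* fell to the level of *Irf5*, with overlapping libraries, and *Irf8* lay below all other members in every library.

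**Figure D1:**
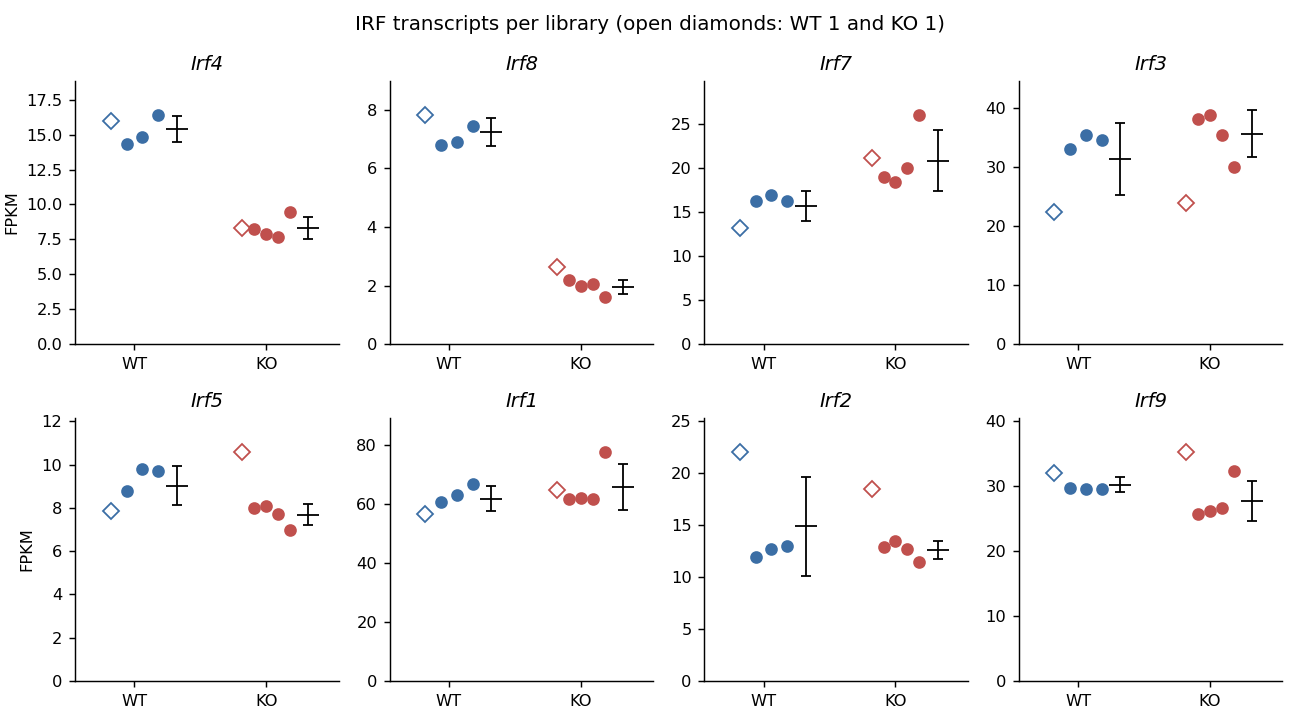
Level of each IRF transcript in FPKM (vertical axes, linear, from 0) in 4 WT libraries (blue) and 5 KO libraries (red); open diamonds mark WT 1 and KO 1, and the black bar and whiskers give mean ± SD (WT 1 to WT 4, KO 2 to KO 5). The groups separate for Irf4 (14.3 to 16.4 against 7.66 to 9.43), Irf8 (6.78 to 7.80 against 1.63 to 2.62) and Irf7 (13.2 to 16.9 against 18.4 to 25.96), and overlap for the other 5.

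In the fit over 12237 genes, 2 of the 8 members were lower in KO Tregs (*Irf4* and *Irf8*), where 6.68% of all genes tested were called lower. None was called higher, against 6.58% of all genes. Calls required an adjusted p under 0.05 by limma on log2(FPKM + 1) with Benjamini-Hochberg adjustment. At an unadjusted p under 0.05, 1 member was higher (*Irf7*) and 3 were lower. The weakest of these members, *Irf5*, ranked 3766th of 12237 genes, so at least 3766 of all genes tested passed that cutoff as well. On recovered reads limma-voom also called 0 members higher and 2 lower, where 13.4% of 13458 genes were called. With all 9 libraries the same 2 members were called lower and none higher, against 3.55% and 3.21% of 12312 genes.

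*Irf8* had the largest change of the family. Its FPKM was 7.80, 6.78, 6.90 and 7.43 in WT 1 to WT 4, and 2.19, 1.99, 2.04 and 1.63 in KO 2 to KO 5, with 2.62 in KO 1. Every WT library was above every KO library, and the libraries within each genotype lay close together. The WT mean of 7.23 ± 0.475 FPKM was 3.68-fold the KO mean of 1.96 ± 0.240 FPKM (SD, n = 4 each). On the log2(FPKM + 1) scale, which understates changes of low genes, *Irf8* was lower in KO Tregs by 1.48 (log2 fold change -1.48, SE 0.089, 95% interval -1.68 to -1.27, adjusted p = 7.79e-05, limma). It ranked 23rd of 12237 genes by p. The difference on recovered reads was larger (-1.89, adjusted p = 4.15e-05, limma-voom). These values rested on 758 to 884 reads in WT libraries, 177 to 236 in KO 2 to KO 5, and 403 in the more deeply sequenced KO 1. The gene spans chr8:120736358-120756694 (mm10) and no other annotated exon overlapped its exons.

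*Irf4* was lower in KO Tregs by a smaller factor. It was at 15.97, 14.3, 14.9 and 16.4 FPKM in WT 1 to WT 4 and at 8.24, 7.89, 7.66 and 9.43 FPKM in KO 2 to KO 5, with 8.29 FPKM in KO 1. No library of one genotype reached the range of the other, and KO 5 was the highest KO library. The WT mean of 15.4 ± 0.947 FPKM was 1.85-fold the KO mean of 8.30 ± 0.786 FPKM (SD, n = 4 each). The log2 fold change was -0.82 (SE 0.083, 95% interval -1.01 to -0.63, adjusted p = 7.68e-04, limma), and 516 to 1354 reads stood behind each value. *Irf4* spans chr13:30749226-30766976 (mm10) and shared no exon sequence with another gene.

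Both losses held in the libraries that stood apart. WT 1 and KO 1 taken alone differed from 7.80 to 2.62 FPKM in *Irf8* and from 15.97 to 8.29 FPKM in *Irf4*. Without WT 1, in a fit that then held neither of these libraries, the log2 fold changes were -1.44 for *Irf8* (adjusted p = 2.76e-05) and -0.80 for *Irf4* (adjusted p = 2.65e-04, limma). With all 9 libraries they were -1.42 (adjusted p = 1.18e-04) and -0.82 (adjusted p = 6.71e-04). In the exact two-sided permutation test, *Irf8* and *Irf4* each gave p = 0.0286 for 4 against 4 libraries and p = 0.00794 for 4 against 5, the smallest values these designs allow. Across all genes tested, 17.2% were lower with no overlap in the 8 libraries, and 5.69% in the 9.

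**Figure D2:**
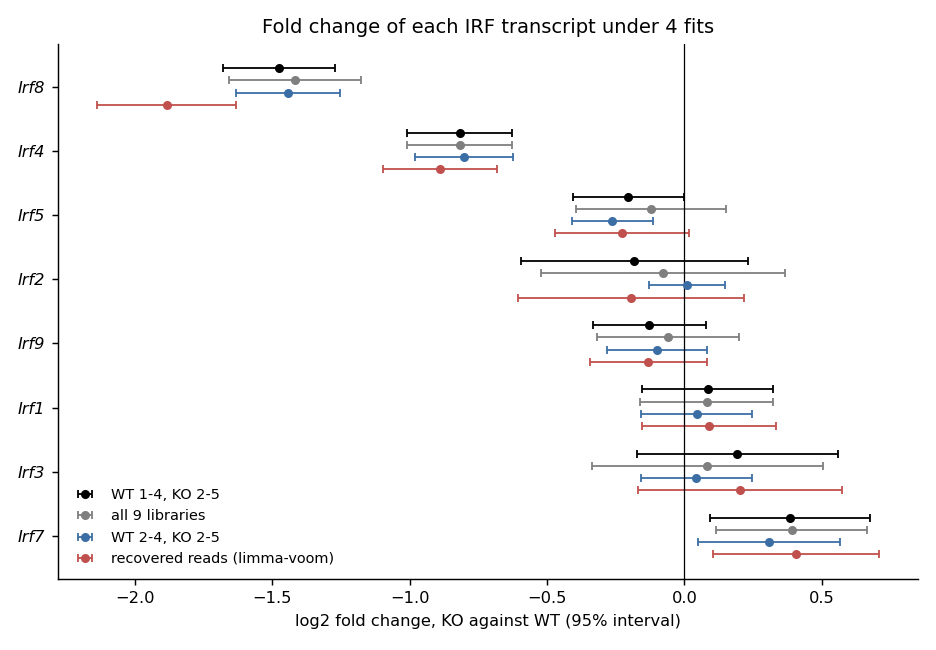
Log2 fold change of each IRF transcript, KO against WT (horizontal axis; points are estimates and bars 95% intervals), for the main fit (black), all 9 libraries (gray), the fit without WT 1 (blue) and limma-voom on recovered reads (red). Irf8 and Irf4 lie below 0 under each of the 4 fits, with main values of -1.48 and -0.82.

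Other blood cells also express *Irf8* and *Irf4*, so the markers of cells that a sorted spleen sample could hold were read beside them. Of 12 B cell markers, 11 had a lower mean in KO Tregs, and their summed FPKM was 24.03 to 31.4 in WT libraries, 15.6 to 17.5 in KO 2 to KO 5 and 29.2 in KO 1. All 16 macrophage, monocyte and dendritic cell markers had a lower mean (sums of 18.8 to 58.5 against 4.86 to 18.8 FPKM, KO 1 at 27.4). All 8 plasmacytoid dendritic cell markers did as well (25.2 to 30.9 against 11.96 to 12.3 FPKM, KO 1 at 13.8). Most of the last sum was *Pacsin1*, at 17.9 to 21.1 FPKM in WT and 9.44 to 10.1 FPKM in all KO libraries. For plasma cells, which need IRF4, 5 of 6 markers were lower (82.0 to 415 against 25.8 to 89.7 FPKM, KO 1 at 85.3). Defining markers were at 0 in some KO libraries: *Ms4a1*, which encodes CD20 of B cells, in KO 5, *Siglech* in KO 2 and KO 5, and *Clec9a* in KO 1, KO 2, KO 4 and KO 5.

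Between WT 1 and KO 1, where *Irf8* was at 7.80 and 2.62 FPKM, some marker values ran in the order of *Irf8* and others did not. The summed B cell markers were at 26.8 FPKM in WT 1 and 29.2 FPKM in KO 1, and the macrophage receptor gene *Csf1r* was at 0.765 and 1.67 FPKM. The summed myeloid markers (18.8 and 27.4 FPKM) and plasma cell markers (82.0 and 85.3 FPKM) were also higher in KO 1. The plasmacytoid sum (25.2 and 13.8 FPKM) and *Siglech* (0.307 and 0.217 FPKM) were higher in WT 1. This comparison has 1 library per genotype. In a fit that took the B cell marker mean as a covariate, the log2 fold changes were -1.47 for *Irf8* (adjusted p = 0.00180) and -0.83 for *Irf4* (adjusted p = 0.00729, limma). That covariate largely followed genotype (r = -0.81 over 8 libraries), and 49.0% of all genes were called in that fit. The markers' part in the differences of *Irf8* and *Irf4* was otherwise not tested.

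**Figure D3:**
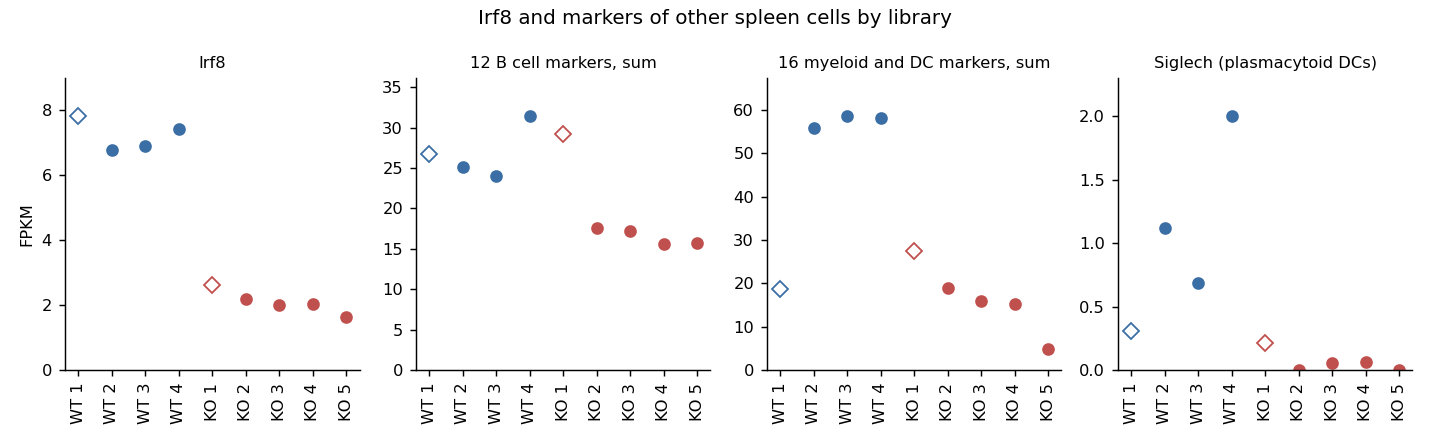
FPKM (linear axes from 0) of Irf8, the sum of 12 B cell markers, the sum of 16 macrophage, monocyte and dendritic cell markers, and the plasmacytoid dendritic cell gene Siglech in each WT (blue) and KO (red) library; open diamonds are WT 1 and KO 1. The B cell sum is 24.03 to 31.4 in WT and 15.6 to 17.5 in KO 2 to KO 5, and the myeloid sum 18.8 to 58.5 and 4.86 to 18.8. Between WT 1 and KO 1, with 1 library per genotype, the myeloid sum (18.8 and 27.4) and B cell sum (26.8 and 29.2) are higher in KO 1. Irf8 (7.80 and 2.62) and Siglech are higher in WT 1.

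All 5 KO libraries exceeded all 4 WT libraries in *Irf7*, which did not pass the adjusted threshold. It encodes the amplifying factor of the type I interferon response and is itself induced by interferon. The FPKM was 13.2, 16.2, 16.9 and 16.3 in WT 1 to WT 4 and 18.995, 18.4, 20.02 and 25.96 in KO 2 to KO 5, with 21.1 in KO 1. KO 5, the library with raised *Ifit1* and *Mx1*, was the highest. The KO mean of 20.8 ± 3.48 FPKM was 1.33-fold the WT mean of 15.6 ± 1.69 FPKM (SD, n = 4 each). On the log2 scale the difference was 0.38 (SE 0.127, 95% interval 0.09 to 0.68, adjusted p = 0.0852, limma), and it was 0.28 without KO 5 (adjusted p = 0.153). The exact two-sided permutation test gave the smallest p of its design, 0.0286 for 8 libraries and 0.00794 for 9. Separation of this kind, higher in KO Tregs, was seen in 15.9% of genes in 8 libraries and in 6.1% in 9. When a term marking the libraries WT 1 and KO 1 was added to the fit of all 9, it was 0.38 with an adjusted p of 0.0193 (limma).

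*Irf3* and *Irf5*, the other factors that act below pattern-recognition receptors, overlapped between genotypes. *Irf3*, expressed in most cells and held inactive until phosphorylated, was at 22.4, 33.2, 35.5 and 34.7 FPKM in WT 1 to WT 4, 38.3, 38.8, 35.5 and 30.1 FPKM in KO 2 to KO 5 and 23.9 FPKM in KO 1. WT 1 and KO 1 were the lowest of their genotypes. Its log2 fold change was 0.19 (95% interval -0.17 to 0.56, adjusted p = 0.413), 0.04 without WT 1 (adjusted p = 0.726) and 0.08 with all 9 libraries (adjusted p = 0.908, limma). *Irf5*, a factor of Toll-like receptor signaling in myeloid and B cells, was at 7.86, 8.78, 9.79 and 9.70 FPKM in WT 1 to WT 4, 7.998, 8.08, 7.71 and 6.98 FPKM in KO 2 to KO 5 and 10.6 FPKM in KO 1. KO 1 was above every other library, and WT 1 lay within the KO range. The log2 fold change of *Irf5* was -0.20 (95% interval -0.41 to 0.00, adjusted p = 0.157, limma). Without WT 1 it was -0.26 with an adjusted p of 0.0156, and with all 9 libraries it was -0.12 with an adjusted p of 0.744. Exons of *Tnpo3*, on the opposite strand, overlapped 14.1% of the *Irf5* exon length, more than the 1.19% to 3.395% shared by *Irf1*, *Irf3*, *Irf7* and *Irf9* with neighboring genes, and the sources used here do not give whether counting used strand.

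*Irf1*, *Irf2* and *Irf9*, which act downstream of interferon receptors, did not pass the test. *Irf1* was at 56.8, 60.9, 63.2 and 66.8 FPKM in WT 1 to WT 4, at 61.9, 62.0, 61.9 and 77.7 FPKM in KO 2 to KO 5 and at 64.8 FPKM in KO 1. KO 2 to KO 4 lay within the WT range, and KO 5 was above it. Its log2 fold change was 0.08 (95% interval -0.15 to 0.32, adjusted p = 0.585), 0.04 without WT 1 (adjusted p = 0.719) and 0.0039 without KO 5 (adjusted p = 0.980, limma). *Irf2* was at 22.02, 11.9, 12.7 and 12.97 FPKM in WT 1 to WT 4, at 12.9, 13.4, 12.7 and 11.4 FPKM in KO 2 to KO 5 and at 18.5 FPKM in KO 1. WT 1 and KO 1 were far above the other 7 libraries, which overlapped. For *Irf2* the log2 fold change was -0.18 (95% interval -0.60 to 0.23, adjusted p = 0.491), without WT 1 it was 0.01 (95% interval -0.13 to 0.15, adjusted p = 0.918), and with all 9 libraries -0.08 (adjusted p = 0.920, limma). *Irf9* was at 31.98, 29.7, 29.6 and 29.6 FPKM in WT 1 to WT 4, at 25.7, 26.1, 26.5 and 32.3 FPKM in KO 2 to KO 5 and at 35.2 FPKM in KO 1. KO 2 to KO 4 were below every WT library, whereas KO 5 and KO 1 were above every one. The log2 fold change of *Irf9* was -0.13 (95% interval -0.33 to 0.08, adjusted p = 0.343), -0.20 without KO 5 (adjusted p = 0.144) and -0.06 with all 9 libraries (adjusted p = 0.890, limma).

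The summed level of the 8 transcripts differed little between genotypes, while its make-up shifted. The sum was 186 ± 7.17 FPKM in WT Tregs and 181 ± 10.01 FPKM in KO Tregs (SD, n = 4 each), with overlapping libraries. *Irf4* and *Irf8* together made up 11.5% to 13.4% of it in WT libraries and 5.57% to 5.92% in all 5 KO libraries. The ratio of *Irf4* to *Irf8* was 2.05 to 2.20 in WT libraries, 3.75 to 5.80 in KO 2 to KO 5 and 3.16 in KO 1. The ratio was thus nearly fixed within WT libraries, and KO 2 to KO 4 also lay close together (3.75 to 3.97). The spread among KO libraries came from KO 5, which was the farthest out, and KO 1. *Irf7* was 7.40% to 8.94% of the family sum in WT libraries and 10.4% to 13.3% in KO libraries. These shares are descriptions of the values already given, with no test. The sum, shares and ratios across genes also depend on the exon lengths used for scaling.

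**Figure D4:**
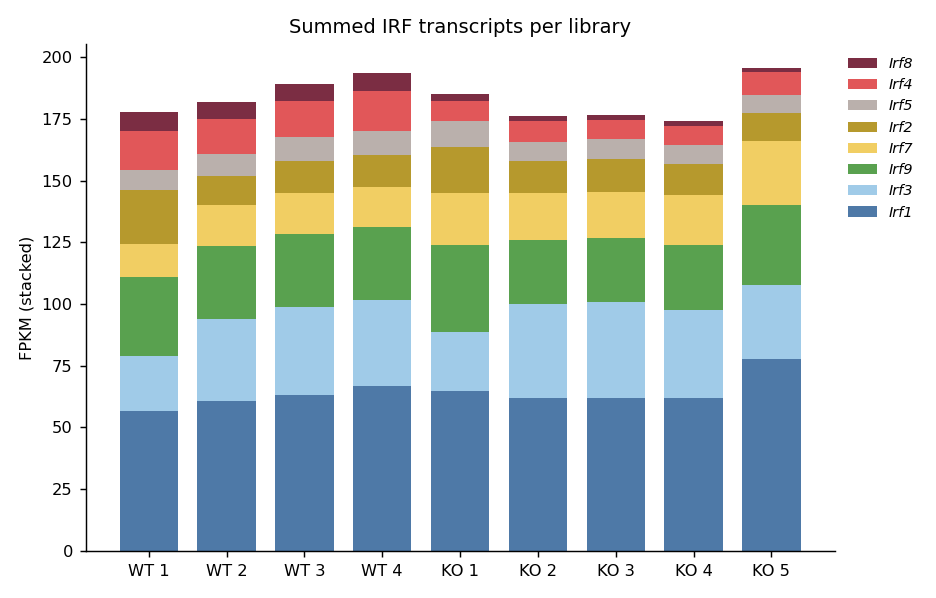
Stacked FPKM of the 8 IRF transcripts (vertical axis, linear, from 0) in each library, with each color 1 gene. The totals are alike (174 to 196 FPKM), whereas the Irf4 and Irf8 segments at the top are smaller in all 5 KO libraries (5.57% to 5.92% of the total against 11.5% to 13.4%).

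Across the 9 libraries, the genes whose log2(FPKM + 1) followed *Irf4* most closely were *Epb41l2*, *Pacsin1* and *Gm33782* (Pearson r = 0.99 each). Those closest to *Irf8* were *Angptl2*, *Penk*, the precursor of enkephalins, and *Snn* (r = 0.99 each). *Irf4* and *Irf8* themselves had r = 0.96. For *Irf9* the closest were *Eef1akmt2*, *Ifit1* and *Trim30a* (r = 0.98, 0.97 and 0.96), the last 2 of them interferon-induced genes. *Irf7* was closest to *Clcn3*, *Gm9889* and *Pmaip1* (r = 0.95 each), and *Irf1* to *Gadd45b*, *Gm10033* and *Zfp951* (r = 0.89, 0.88 and 0.88). For *Irf2* they were *Atp6v0c*, *Fkbp4*, which encodes a cochaperone of HSP90, and *Hsph1*, a heat shock protein gene (r = 0.99, 0.98 and 0.98). *Hsph1* was at 22.9 FPKM in WT 1 and 13.9 FPKM in KO 1 and at 6.05 to 8.80 FPKM in the others, the split also seen for *Irf2*. *Irf3* was closest to *Iqcc*, *Trbj2-7* and *Zfp101* (r = 0.99 each) and *Irf5* to *Vegfb*, *Gstt3* and *Plek* (r = 0.92, 0.92 and 0.91). The points share genotype and the libraries that stood apart, and these values describe likeness only.

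Genes of IL-2 and TCR signaling, listed together with genes induced by the TCR, were lower where they passed the test. Of 21, 10 were called lower by limma, with a median log2 fold change of -0.38 beside 0.0052 over all genes. Among all genes tested, 6.68% were called lower and 6.58% higher. The IL-2 receptor gene *Il2ra* was at 114 ± 10.7 FPKM in WT and 42.9 ± 1.10 FPKM in KO Tregs (log2 fold change -1.38, adjusted p = 1.06e-04). The TCR-induced genes *Nr4a3* (-1.39, adjusted p = 1.11e-04), *Egr2* (-1.57, adjusted p = 2.74e-04) and *Myc* (-0.82, adjusted p = 0.00629) were lower as well. Among 20 genes of the IRF4-dependent and effector Treg program, 8 were lower and 4 higher (median -0.33). *Cd83*, an activation marker, fell by 1.87 on the log2 scale (adjusted p = 6.88e-05), and *Ccr8*, a chemokine receptor gene of effector Tregs, fell by 1.81 (adjusted p = 2.67e-04). *Il1rl1*, which encodes the IL-33 receptor ST2, rose by 1.10 (adjusted p = 1.06e-04), and *Rora*, a nuclear receptor gene, rose by 1.61 (adjusted p = 1.70e-04, all limma, n = 4 each). *Prdm1* and *Gata3* were the other 2 higher genes.

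Among the DNA-binding partners of IRFs, 7 of 11 passed the filter, and 1 was called higher (median 0.11), beside 6.58% of all genes tested. *Junb*, a partner in BATF-JUN-IRF4 complexes, was at 326 ± 76.1 FPKM in WT and 667 ± 145 FPKM in KO Tregs (log2 fold change 1.04, adjusted p = 0.0257), with KO 5 highest at 883 FPKM. *Jund* (0.48, adjusted p = 0.152) and *Stat2* (0.27, adjusted p = 0.227, limma) did not pass. Of 14 kinases, adaptors and sensors upstream of IRF3, IRF5 and IRF7, 1 was higher, *Mb21d1*, which encodes the DNA sensor cGAS (0.40, adjusted p = 0.0412). The list's median was 0.02, and *Ifih1*, *Tmem173* and *Irak1* had adjusted p of 0.0897, 0.104 and 0.124.

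Calls among interferon receptor, signaling and target genes are given beside those over all genes tested, of which 6.68% were called lower and 6.58% higher. In the interferon receptor and JAK-STAT list, 3 of 11 were lower (median -0.25), including *Ifngr2*, a subunit of the IFN-γ receptor (-0.75, adjusted p = 0.00157), and the feedback inhibitor gene *Socs1* (-0.84, adjusted p = 0.0282). *Usp18* missed the threshold (-0.53, adjusted p = 0.0707). *Ifng*, the single interferon gene analysed here, was at 3.49 ± 0.685 FPKM in WT and 1.11 ± 0.769 FPKM in KO Tregs (-1.14, adjusted p = 0.0172). Of 21 IFN-γ and IRF1 target genes, 5 were lower and 1 higher (median -0.16). The lower genes included the GTPase genes *Gbp5* (-0.79, adjusted p = 8.02e-04), *Iigp1* (-0.54, adjusted p = 0.0102) and *Gbp3* (-0.41, adjusted p = 0.0214), and the higher one was *Casp1*, the inflammasome protease gene (0.74, adjusted p = 0.00784, limma, n = 4 each). Of 26 interferon-stimulated genes, 2 were lower and 1 higher (median -0.11): *Isg15* (-1.23, adjusted p = 0.0246) and *Isg20* (-0.71, adjusted p = 0.0120) against the antiviral gene *Oas1a* (0.73, adjusted p = 0.0118). *Ly6a* did not pass (0.75, adjusted p = 0.0531, limma).

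**Figure D5:**
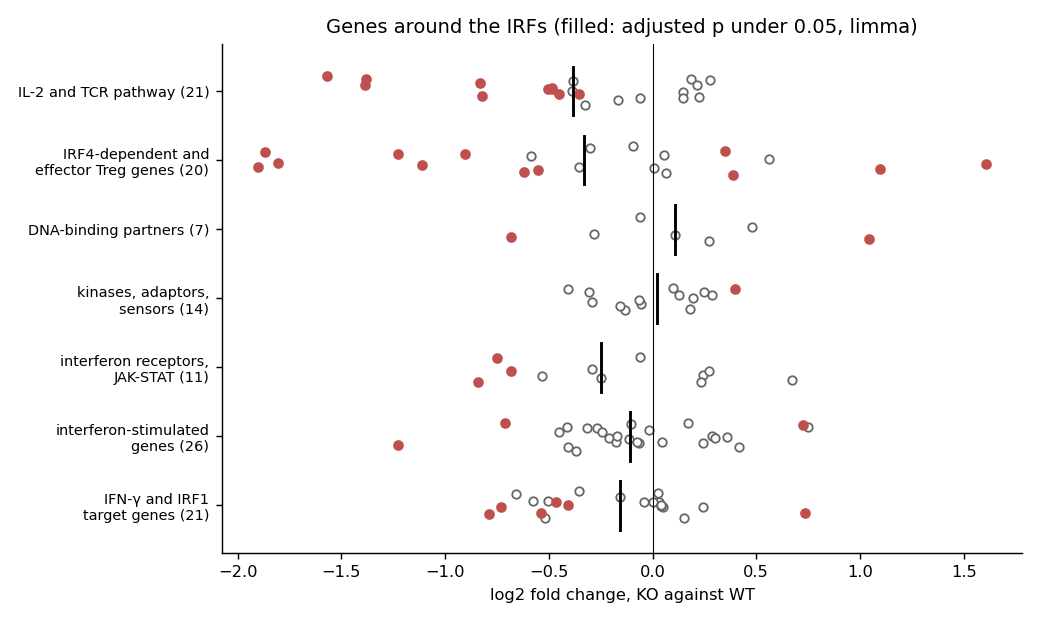
Log2 fold change, KO against WT (horizontal axis), of the tested genes in 7 lists around the IRFs, with the number tested in brackets; filled red points passed an adjusted p under 0.05 (limma), open points did not, and black bars mark list medians. The filled points of the IL-2 and TCR list lie below 0 (10 of 21), and 23 of 26 interferon-stimulated genes are open. Over all genes tested, 13.3% passed.

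These list counts moved with the libraries, as did calls over all genes, which were 13.3% of genes tested in the main comparison and 36.6% without WT 1. Without WT 1 the calls went from 10 to 18 in the IL-2 and TCR list (13 lower and 5 higher), from 6 to 12 among IFN-γ and IRF1 targets, from 3 to 7 among interferon-stimulated genes, from 3 to 5 among receptors and JAK-STAT genes, from 12 to 14 in the IRF4-dependent list and from 1 to 4 among kinases, adaptors and sensors. Leaving out 1 of the other 7 libraries gave 6 to 8, 3 to 5, 2 to 5, 2 to 3, 9 to 11 and 0 to 1 calls in the same order. The lowest count in the IL-2 and TCR list, 6, came without 1 of WT 2 and WT 3 or 1 of KO 2 to KO 4, and that of 3 among IFN-γ and IRF1 targets without KO 2, KO 3 or KO 4. The count of 5 among interferon-stimulated genes came without KO 5. *Junb* was not called without WT 2 or without any 1 of KO 2 to KO 5, and *Ifng* was not called without WT 3, KO 2, KO 3 or KO 4. *Mb21d1* was not called without WT 2, WT 3 or any 1 of KO 2 to KO 5, nor without the filter on low values. With all 9 libraries *Oas1a* was the 1 interferon-stimulated gene called, and *Socs1*, *Gbp3*, *Isg15* and *Isg20* no longer passed (adjusted p of 0.0987 to 0.254, limma).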

How the data were processed

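Bulk RNA-seq was performed on sorted splenic GFP+ Tregs. The submitters' processing notes name CASAVA, fastp and mm10; the sources used here do not give the aligner or counter. The authors deposited 1 table of FPKM for 25500 entries and 9 libraries. For 95.6% of entries, FPKM times GENCODE M21 exon length gave whole reads in every library (within 0.01), and these recovered reads give the depth. Members and lists were chosen with earlier results of these data known.

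Genes above 1 FPKM in at least 4 libraries were tested with limma 3.58.1 (R 4.3.3, trend) on log2(FPKM + 1), KO against WT, with Benjamini-Hochberg adjustment over all genes and a threshold of 0.05. The fit was tested on simulated data. Each member was also tested by an exact two-sided permutation test. Named genes were the 8 members, *Hsp90b1*, the 4 tested genes with the smallest p in each list, and the 3 genes most like each member; other genes named were chosen after their values were seen. Alternatives changed the libraries, scaling, filter, pseudocount, replicate block, a B cell covariate and the unit (limma-voom on recovered reads). Nothing in the labels says that libraries of a genotype came from separate mice, although the methods do. Promoters and motif shares came from RefSeq, with Python 3.11.15. Some genes of the lists are counted but not reported here by name.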

Additional observations from a re-analysis of the deposited data

Results flagged for a closer look

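In 6 groups of libraries, 1 library lay far from the others of its genotype for a member, by Dixon's test. Each member was tested in WT 1 to WT 4, KO 2 to KO 5 and KO 1 to KO 5. Chance alone flags about 1 in 20 groups, and the KO sets share libraries, so their flags are not independent. *Irf1* was at 77.7 FPKM in KO 5, far above KO 2 to KO 4, and this held whether or not KO 1 was counted. *Irf9* was at 32.3 FPKM in KO 5, above KO 2 to KO 4. *Irf9* was also highest in WT 1 among WT libraries, at 31.98 FPKM against 29.6 to 29.7. *Irf2* was highest in WT 1 among WT libraries, at 22.02 FPKM, and highest in KO 1 among the 5 KO libraries, at 18.5 FPKM. *Irf4* and *Irf8* had no such library.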

How the results depend on the processing

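Under each of 19 alternatives *Irf4* and *Irf8* were called lower in KO Tregs (limma). The log2 fold change ranged from -0.89 to -0.79 for *Irf4* (adjusted p 4.08e-05 to 0.00729) and from -1.89 to -1.36 for *Irf8* (adjusted p 4.06e-06 to 0.00207). For other members some alternatives passed the threshold. *Irf7* gave 0.3847 (adjusted p = 0.0193) with all 9 libraries and a term for WT 1 and KO 1, and its adjusted p ranged from 0.0193 to 0.169. *Irf3* gave 0.6375 (adjusted p = 0.0286) with the B cell covariate, which itself followed genotype (r = -0.81 over 8 libraries), and its adjusted p ranged up to 0.908. The same fit gave -0.61 for *Irf2* (adjusted p = 0.0777) and -0.0029 for *Irf5* (adjusted p = 0.985). *Irf5* ranged from -0.2619 (without WT 1, adjusted p = 0.0156) to -0.1635 when 1 library was left out. The number of members called higher was 1 in place of 0 in the fit with the term for WT 1 and KO 1, in the fit with the B cell covariate, and in the fit with the replicate block over 8 libraries. The cause was not tested.

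Same-numbered WT and KO libraries did not deviate together in the 8 libraries (r = 0.04, -0.10 and 0.01 for numbers 2, 3 and 4). The WT mean behind these deviations included WT 1, while the KO mean lacked KO 1. This check therefore could not show that the numbers were unpaired, and the main comparison did not take them as pairs. Over all 9 libraries, which include WT 1 and KO 1, r was 0.87, 0.43, 0.32 and 0.47 for numbers 1 to 4. With the replicate number as a block there, *Irf4* (-0.86) and *Irf8* (-1.36) were the members called, and *Irf7* gave 0.31 (adjusted p = 0.0574). In that fit KO 5 had no WT library of its number. With the replicate number as a block over the 8 libraries of the main comparison, WT 1 and KO 5 had no library of the same number. These estimates therefore rested on WT 2 to WT 4 and KO 2 to KO 4 alone. The log2 fold changes were 0.2032 for *Irf7* (adjusted p = 0.044), -0.175 for *Irf9* (adjusted p = 0.0269) and -0.04 for *Irf1* (adjusted p = 0.538, limma). *Irf4* (-0.86) and *Irf8* (-1.39) stayed called, and all genes called went from 1622 to 3668. An effect of the block cannot be told apart here from that of setting WT 1 and KO 5 aside. Among all genes, calls ranged from 731 to 4421 when 1 library was left out, the most without WT 1, and were 832 with all 9 libraries, 4471 with the term, 999 above 5 FPKM and 5995 with the B cell covariate. At 177 to 236 reads, *Irf8* in KO 2 to KO 5 was the member least deeply counted.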
